A study of Homo sapiens with 30 samples.

Results

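The iCLIP lists of LARP6 without its N-terminal region (ΔNTR) and of LARP6 without its C-terminal region (ΔCTR) were compared gene by gene. Each peak was assigned to a gene by its centre, and the score of a gene in a list was the sum over its peaks. A peak was listed in at least 1 of the lists for 6691 genes, of 7617 genes with a peak in any of the 5 lists of the series, and 3495 genes had a peak in both. To be compared, a gene needed a score of 50 or more when both lists were added and at least 1 CPM (counts scaled to the size of the library) in the input RNA of both lines, which 855 genes met. Another 23 genes reached the score but not the input level and are described apart. The 855 genes held 67.8% of the ΔNTR score and 68.1% of the ΔCTR score.

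The cells were U-87 MG, an established human glioblastoma line that expresses LARP6 of its own, so both deletions were studied beside the endogenous protein. The variants were myc-tagged, codon-optimised and expressed from a doxycycline-inducible lentiviral vector in stably transduced lines, at 60 ng/mL doxycycline for 24 h. RNA crosslinked to each variant was recovered with an anti-myc antibody from 3 iCLIP samples, and peaks called in parental cells, which carried no variant, were subtracted by the authors. Full-length LARP6 (FL), made in the same way, served as the reference list, and total RNA of each line, sequenced in paired-end reads of 150 nt, served as the input. The replicates reached the data as 1 pooled list per variant and the input as 1 library per line, so no difference could be set against the spread between replicates. Intervals are therefore 95% counting intervals, exact binomial for ratios and Wilson for shares, and cover counting error only.

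LARP6 belongs to the La-related proteins, which grip RNA with a La-module, in which a La-motif is joined to an RNA recognition domain. It is best known for binding a stem-loop in the 5'UTR of type I collagen mRNAs and has also been linked to ribosomal protein mRNAs. The segments on either side of the La-module lack a fixed structure, and the comparison asked how RNA contacts differ when the one or the other is missing.

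Both lines carried the mesenchymal markers of U-87 MG in their input. VIM stood at 7986 CPM in the ΔNTR line and 7343 in the ΔCTR line, and CD44 at 2079 and 2157. The glial genes GFAP, SOX2 and S100B were absent or nearly so, at 0 to 0.240 CPM. Of the 10 markers of leukocytes, epithelium, endothelium, neurons and oligodendrocytes, all were at 0 to 3.28 CPM except SNAP25, at 65.6 and 58.4 CPM. LARP6 itself had 74.8 CPM in the ΔNTR line, 51.9 in the ΔCTR line and 61.3 in the FL line, which is no check of the deletions because the variants were codon-optimised. The input libraries held 25027075 and 26936180 counts in genes. Only 1 of the 855 genes differed by 2-fold or more in input, and the median size of the input difference was 0.10 on the log2 scale. The ΔCTR list was the larger by score, 118751 against 92958, and the smaller by number, 15870 peaks against 17180.

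The sites below carry the differences described in the next paragraphs. They are read from the human genome GRCh38, up to 30 bases around the centre of the peak, 5′ to 3′ on the RNA's strand, with runs of at least 4 A or T in capitals. The first group holds sites where ΔNTR had the larger share of its score. They lie in the 5'UTR of HNRNPA0 (chr5:137754274-137754303, minus), PFN1 at a site assigned to CDS (chr17:4948499-4948528, minus), the 3'UTR of PKM (chr15:72199168-72199197, minus) and the noncoding RNA RMRP (chr9:35657947-35657976, minus). A centre counted as CDS if it is coding in any annotated transcript. Whether the PFN1 site is coding in the main PFN1 transcript was not tested. None of these 4 stretches holds a run of 4 A or T.
HNRNPA0: ttggttgtcttccagtctcctcggctcgcc
PFN1: agcgagcggagccgcggtccggacggcagc
PKM: tctctagctctctaggcctctccagtttgc
RMRP: ctctgttcctcccctttccgcctaggggaa

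The second group holds sites where ΔCTR had the larger share. They lie in the 3'UTR of ACTB (chr7:5527486-5527515, minus), PAPOLA (chr14:96566186-96566203, plus), ACTL6A (chr3:179588287-179588306, plus), PHF20 (chr20:35949435-35949454, plus) and CTNNA1 (chr5:138934169-138934189, plus) and in the CDS of SLC20A1 (chr2:112646915-112646940, plus). CTNNA1 is shown because it breaks the pattern and holds no such run.
ACTB: tgTTTTTTTAATAgtcattccAAATATgag
PAPOLA: AATTcTTATTTTTAAATg
ACTL6A: tagtgTATTAATTAccagtg
PHF20: aagctgtaacTTTTAAggta
SLC20A1: cATTATTgcATTTgtcttggcattct
CTNNA1: atacaacactgatactagatt

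The lists differed first in how the score was spread over peaks. The classes used here are raw scores with a floor of 3, not scaled to depth, in lists that total 92958 in ΔNTR and 118751 in ΔCTR. The part of depth in these differences was not tested. In ΔNTR, 30.2% of the score lay in peaks with the lowest score of 3 and 36.0% in peaks of 4 to 9, against 20.5% and 24.6% in ΔCTR. High peaks took correspondingly less: peaks of 30 to 99 held 9.92% of the ΔNTR score and 18.5% of the ΔCTR score, and those of 100 or more held 4.61% and 12.3%. FL, with 22.5%, 24.6%, 18.9% and 11.54% in the same 4 classes, had shares nearer to those of ΔCTR.

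The same held at sites chosen by the FL list alone, which neither deletion list entered. The 57 FL peaks with a score of 100 or more all overlapped a peak of ΔNTR and a peak of ΔCTR. These sites took 6.42% of the ΔNTR score and 10.7% of the ΔCTR score, a log2 ratio of -0.74 (-0.78 to -0.69), and the share was higher in ΔCTR at 49 of them and higher in ΔNTR at 8. At the 395 FL peaks of 30 to 99 the log2 ratio was -0.49 (-0.53 to -0.46), with 291 sites higher in ΔCTR and 99 higher in ΔNTR. The ratio moved toward 0 as the FL score fell and was 0.08 (0.03 to 0.13) at FL peaks with a score of 3. Of all peaks, an FL peak overlapped 30.1% in ΔNTR (29.4 to 30.7) and 34.4% in ΔCTR (33.6 to 35.1).

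**Figure D1:**
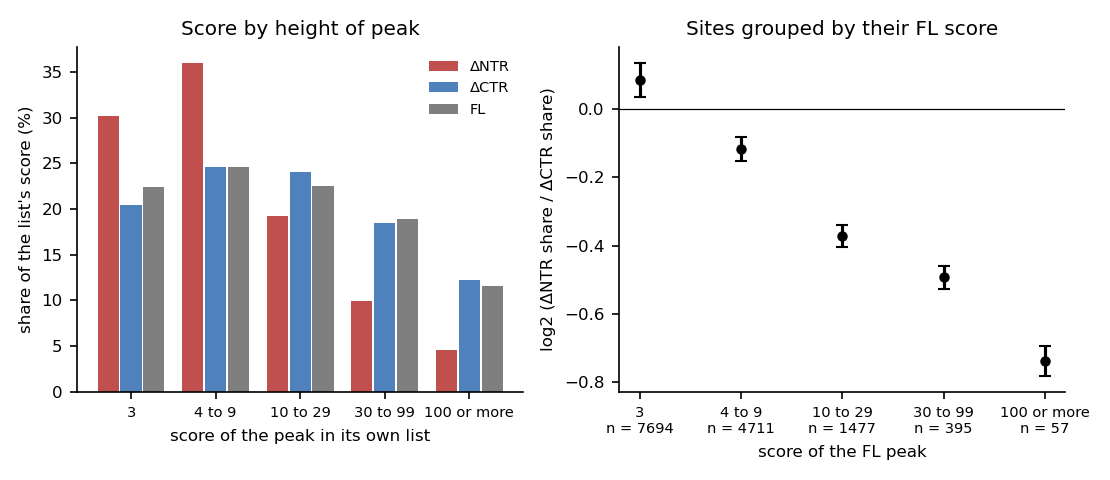
The left panel plots the share of each list's score (%) in peaks of 5 classes of score for ΔNTR, ΔCTR and FL; the right panel plots the log2 ratio of the ΔNTR share to the ΔCTR share at sites grouped by the score of their FL peak, with 95% counting intervals. Weak peaks take the larger part of the ΔNTR score, and the ratio falls from 0.08 at FL peaks of 3 to -0.74 at those of 100 or more.

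Within single genes the ΔNTR score was likewise less concentrated. Concentration was measured as the chance that a pair of score units drawn from a gene falls in the same peak, an unbiased Simpson index that is 1 when a gene has a single peak. Over the 323 genes with a score of at least 50 in each list its median was 0.101 in ΔNTR and 0.176 in ΔCTR, and 278 genes were lower in ΔNTR while 40 were higher. The median difference was -0.050, with quartiles of -0.118 and -0.020. In the 295 of these genes that also reached 50 in FL, the medians were 0.102 in ΔNTR, 0.188 in ΔCTR and 0.182 in FL.

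RAB10, a small GTPase of vesicle traffic, had the largest difference, with a concentration of 0.083 over 16 peaks in ΔNTR, 0.810 over 3 peaks in ΔCTR and 0.588 over 7 peaks in FL. The ribosomal stalk protein gene RPLP1 followed, at 0.239 over 7 peaks, 0.667 over 4 and 0.407 over 7. EPAS1, which encodes a hypoxia-inducible transcription factor, had 20 peaks in ΔNTR, 7 in ΔCTR and 10 in FL and concentrations of 0.144, 0.547 and 0.358. The scores of ΔNTR and ΔCTR were 74 and 98 for RAB10, 162 and 172 for RPLP1 and 112 and 178 for EPAS1, and in each of them ΔNTR divided the smaller score among more peaks. The opposite was seen in IST1, an adaptor of membrane scission, with 2 peaks and 0.886 in ΔNTR against 6 peaks and 0.446 in ΔCTR. RMRP and the mitochondrial transcripts MT-ATP6 and MT-CO3 were also more concentrated in ΔNTR, at 0.626, 0.424 and 0.255 against 0.424, 0.215 and 0.158.

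For each gene the score share, the part of a list's score that falls on the gene, was then compared between the lists. Shares are given per 10000 of the list's score. Differences are given as log2(ΔNTR share/ΔCTR share), computed after 1 was added to each score, from which the same ratio of the input CPM was taken off. By this measure 66 genes were at least 2-fold higher in ΔNTR, 7.72% of the 855, and 99 were at least 2-fold higher in ΔCTR, 11.6%. Of all 855 genes the counting interval lay above 0 for 193 and below 0 for 206. With no input the counts were 81 and 113. A minimum score of 20 gave 248 and 285 of the 1850 genes then compared, 13.4% and 15.4%. The single-end libraries of the same lines, which the labels call small-RNA libraries, gave 137 and 111 when used as the input, so the balance between the directions turned. As libraries of small RNA they are not an equal measure of mRNA levels. The median over all 855 genes was -0.04, with quartiles of -0.55 and 0.45. Because the genes were chosen by this ratio, their values in the ΔNTR and ΔCTR lists are a description. Just inside the 2-fold limit stood NDRG1 at 1.002 and PAPOLA at -1.004, and just outside stood LASP1 at 0.99 and LANCL1 at -0.996.

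**Figure D2:**
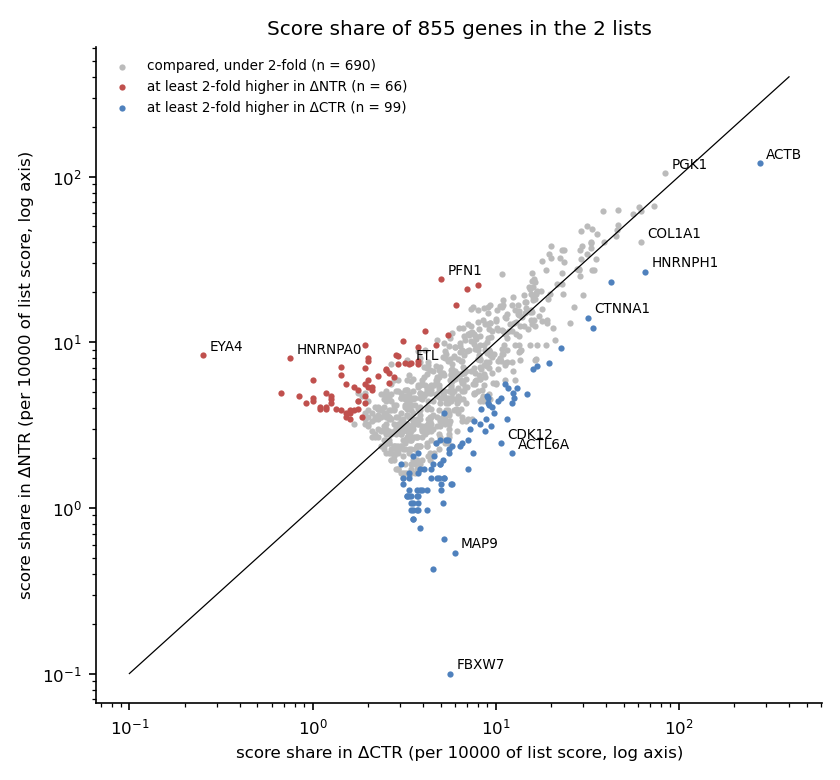
Each point is 1 of the 855 genes, with its score share in ΔCTR on the x axis and in ΔNTR on the y axis, both per 10000 of the list's score on log axes, before the input is subtracted; the line marks equal shares, and FBXW7, at 0 in ΔNTR, is drawn at 0.1. The 66 genes higher in ΔNTR lie mainly at low and middle shares, while the 99 higher in ΔCTR reach up to ACTB.

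The genes farthest apart toward ΔNTR were of varied function. EYA4, which encodes a transcriptional coactivator and phosphatase, had a score of 78 in ΔNTR, 3 in ΔCTR and 76 in FL, and its score in ΔNTR and FL was intronic. Its log2 ratio was 4.75 (3.55 to 7.46). HNRNPA0, an RNA-binding protein of the hnRNP family, scored 75, 9 and 64 in the same order, a log2 ratio of 3.25 (2.38 to 4.57). Its 5'UTR took 49 of the ΔNTR score and 57 of the FL score but 9 of the ΔCTR score. PFN1, which encodes the actin monomer-binding protein profilin, scored 223, 60 and 194, a log2 ratio of 2.11 (1.71 to 2.56). Peaks of PFN1 assigned to CDS, the site printed above among them, held 114, 26 and 108, and those in the 3'UTR held 104, 31 and 65.

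SPHK1, a sphingosine kinase gene, scored 46 in ΔNTR and 8 in ΔCTR, with 25 in FL. PHC2, of a Polycomb complex, scored 55, 12 and 38, all but 4 of the ΔNTR score in the 3'UTR. TNKS1BP1, which encodes a tankyrase-binding protein, scored 90, 23 and 51 and had 17 peaks in ΔNTR against 3 in ΔCTR. Cell polarity scaffolds were among the genes named, SCRIB with 44, 10 and 13 and DLG5 with 66, 17 and 54. The ribosomal protein gene RPL8, with 40, 11 and 35, had most of its score in the CDS. POLDIP2 scored 59, 17 and 41, and BRI3 scored 43, 12 and 22. The input log2 ratio of the genes named was at most 0.41 in size, so their folds rested mainly on the scores.

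Toward ΔCTR the farthest was FBXW7, a ubiquitin ligase subunit gene, with 0 in ΔNTR, 67 in ΔCTR and 54 in FL. With its ΔNTR score set to a floor of 3 over the list, its share came out 16.6-fold higher in ΔCTR, and the counting interval of the log2 ratio reached to -3.71. MAP9, a microtubule-associated protein gene, scored 5 in ΔNTR and 71 in ΔCTR, with 62 in FL, all but 3 of the FL score in its 3'UTR. Its log2 ratio was -2.78 (-4.69 to -1.74). ACTL6A, an actin-related subunit of chromatin remodellers, scored 20, 146 and 73 at 2 sites of its 3'UTR in each list. The log2 ratio was -2.26 (-3.08 to -1.64). CDK12, a transcription kinase gene with 23, 127 and 91, had 1 dominant site in its 3'UTR (chr17:39531390-39531420, plus), scored 23 in ΔNTR, 119 in ΔCTR and 85 in FL.

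PHF20, a chromatin reader gene, scored 13 in ΔNTR and 69 in both other lists. GEM, a small GTPase gene, scored 4, 54 and 35, and ADAM12, a membrane metalloprotease gene, 70, 231 and 142, which came to -1.58 on the log2 scale and to -0.73 with the small-RNA input. GPATCH2L (10, 61 and 33) and CAMK2N2 (9, 44 and 25) had 3'UTR sites as their highest peaks, as did GEM and ADAM12. TMPRSS15, the gene of enteropeptidase, scored 6, 62 and 37 and had its ΔCTR score in the CDS, at an input of 259 and 302 CPM in the ΔNTR and ΔCTR lines. CDK5R2, a neuronal kinase activator gene, had its score in the 5'UTR, with a single peak of 14 in ΔNTR and 62 in ΔCTR, and its input was near the minimum, at 1.80 and 1.08 CPM. KIF3C, a kinesin gene, scored 7, 46 and 19 and had its highest peak in an intron. In 8 of the 12 genes the highest ΔCTR peak lay in the 3'UTR.

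The intronic peaks among these shared runs of bases with 7SL, the RNA of the signal recognition particle from which Alu repeats derive. The longest run shared with RN7SL1 was 13 bases in the FBXW7 peak, 10 in KIF3C and 9 in EYA4, against 5 to 8 in the highest peaks of the other 21 genes named. A run of 9 was also found in the PFN1 site printed above and in a VIM site, so the EYA4 run does not stand apart. Reads from repeat copies may be placed at one of several positions, and the part of this in the EYA4, FBXW7 and KIF3C values was not tested.

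FL, which the choice of these genes did not use, had a share between those of ΔNTR and ΔCTR in 22 of the 24 genes, the exceptions being MAP9 and PHF20, where it was highest in FL. Among all called genes it was between in 51 of the 66 higher in ΔNTR and 70 of the 99 higher in ΔCTR, against 203 of the 690 genes in neither group. A gene chosen for a wide gap leaves more room between the lists, so nothing is read from the excess. Genes higher in ΔNTR had a median log2 ratio to FL of 0.88 in ΔNTR and -0.47 in ΔCTR. Genes higher in ΔCTR had -1.03 in ΔNTR and 0.38 in ΔCTR. Both ratios share the FL list and are given side by side only.

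Described by the FL list alone, the called genes differed in where LARP6 bound them. In the 66 genes higher in ΔNTR, 9.57% of the FL score lay in 5'UTRs, 38.2% in CDS and 45.1% in 3'UTRs. In the 99 genes higher in ΔCTR the same shares were 1.00%, 13.2% and 79.2%, and without ACTB 1.32%, 17.3% and 72.7%. The 690 genes in neither group had 4.07%, 35.9% and 55.5%. Median canonical transcript length was 3780 nt, 5339 nt and 4113 nt in the 3 groups, and median ΔNTR input was 263, 143 and 279 CPM. The median number of peaks per gene was 11 in ΔNTR and 5 in ΔCTR for genes higher in ΔNTR, and 3 and 5 for genes higher in ΔCTR.

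Of the 6 genes with the highest summed scores, 5 were under 2-fold as whole genes, PGK1 only with the peaks around its start counted, as described below. ACTB, the cytoplasmic actin gene and the highest of all, was the exception. It scored 1120 in ΔNTR, 3293 in ΔCTR and 2098 in FL, a log2 ratio of -1.25 (-1.35 to -1.15), and its score came almost wholly from 1 site in the 3'UTR, with 1099, 3293 and 2098. Centred within classes of G and C share, an alternative chosen after seeing the data, ACTB stood at -0.95, under the limit. CD44, the hyaluronan receptor gene, scored 618, 869 and 684 over 38 to 51 peaks, a log2 ratio of -0.08 (-0.24 to 0.06). The matrix protein genes FN1 at -0.18 (-0.34 to -0.02) and COL6A3 at -0.15 (-0.31 to 0.01) and the receptor-like gene DCBLD2 at 0.16 (-0.01 to 0.32) were also near 0. With the small-RNA input the same 4 genes stood at 0.18, 0.23, 0.33 and 0.35, so CD44, FN1 and COL6A3 changed sign and DCBLD2 did not.

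PGK1, a glycolytic kinase gene, was near 0 as a whole at -0.09 (-0.22 to 0.04), with the peaks around its start counted, but not in its parts. Its 3'UTR scored 416 in ΔNTR, 834 in ΔCTR and 879 in FL. The log2 ratio there was -1.06 (-1.23 to -0.89), past the 2-fold limit toward ΔCTR. Its highest 3'UTR site (chrX:78126079-78126102, plus) scored 256 in ΔNTR, 625 in ΔCTR and 676 in FL. Peaks around the start of the gene summed to 558 in ΔNTR, 166 in ΔCTR and 356 in FL, and they began 450, 421 and 446 nt before the canonical start of transcription. The stretch before the start is promoter sequence. The lentiviral vector of these lines carries a human PGK1 promoter, and RNA of the vector and RNA of the gene cannot be told apart there, so the PGK1 peaks around the start are not read as binding to PGK1 mRNA.

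The known collagen targets were near 0 after the input was taken off, and this rested on the input. COL1A1 scored 373 in ΔNTR, 737 in ΔCTR and 452 in FL, at an input of 628, 1000 and 733 CPM, and its log2 ratio less the input was 0.04 (-0.14 to 0.22). Its 5'UTR, where the stem-loop is, took 57, 162 and 151, a log2 ratio of -0.47 (-0.94 to -0.04). COL1A2 scored 252, 397 and 280 and stood at 0.00 (-0.23 to 0.23), and its 5'UTR, with 80, 147 and 152, at -0.21 (-0.63 to 0.18). Without the input COL1A1 stood at -0.63 and COL1A2 at -0.30, and with the small-RNA input, no equal measure of these mRNAs, at -0.92 and -1.02, the latter past the 2-fold limit toward ΔCTR. RPLP2, a ribosomal stalk protein gene, scored 47, 42 and 53, a log2 ratio of 0.43 (-0.20 to 1.07) and of 1.49 with the small-RNA input, with 24, 26 and 24 in its 5'UTR. CTNNA1, the alpha-catenin gene, scored 131, 381 and 327, a log2 ratio of -1.17 (-1.47 to -0.89), and the site printed above held 97, 355 and 305 of this. With the small-RNA input CTNNA1 stood at -0.70, under the limit. LARP6 mRNA itself scored only 17, 9 and 31 and was under the score minimum.

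By region, ΔNTR had the larger share in 5'UTRs and the smaller share in 3'UTRs. The 5'UTR took 4.53% of the ΔNTR score (4.40 to 4.67), 2.41% of the ΔCTR score (2.33 to 2.50) and 4.09% of the FL score (3.97 to 4.21), a difference of 2.12 percentage points between the deletions (1.96 to 2.28). The 3'UTR took 52.0%, 56.1% and 52.3%, a difference of -4.17 points (-4.59 to -3.74). The CDS took 34.6%, 32.8% and 32.7%, and introns 5.79%, 5.06% and 7.26%, and by number of peaks both of these differences changed sign, to -0.0773 and -0.179 points. Counted by gene and region, 823 pairs reached the score minimum. Of these, 77 were at least 2-fold higher in ΔNTR, 9.36%, and 117 in ΔCTR, 14.2%. Of the 20 pairs in 5'UTRs, 7, PGK1 among them, were higher in ΔNTR and 1 in ΔCTR, against 41 and 73 of the 517 pairs in 3'UTRs and 26 and 38 of the 262 in CDS.

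Along the canonical mRNA the ratio of the shares was highest at the 5′ end, while in percentage points the rest of the 3'UTR differed most, by -4.53. The first 50 nt held 2.05% of the ΔNTR score on mRNAs (1.96 to 2.15), 0.938% of the ΔCTR score (0.882 to 0.997) and 1.62% of the FL score (1.54 to 1.71), a ratio of 2.19 between the deletions and of 2.02 without PGK1. The rest of the 5'UTR held 2.93%, 1.69% and 3.00%, a ratio of 1.74. The first 100 nt of the CDS held 3.00%, 2.32% and 3.04%, a ratio of 1.29. Further along the message the ratio was close to 1, at 1.04 in the rest of the CDS, 1.03 in the first 100 nt of the 3'UTR and 1.09 in the last 100 nt. In the rest of the 3'UTR it was 0.920, and 0.948 without ACTB. In the first 50 nt of the message FL stood between the deletions, while in the rest of the 5'UTR and the first 100 nt of the CDS it had shares like those of ΔNTR.

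The shift toward the 5'UTR was also present within genes. Of the 810 genes with a score of at least 20 in each list, 268 had a peak in their 5'UTR, and the 5'UTR share of the gene's own score was higher in ΔNTR in 187 of them and higher in ΔCTR in 80. The counting interval of the difference excluded 0 in 63 genes toward ΔNTR and in 14 toward ΔCTR, and the median difference was 3.23 percentage points. RPLP1 had 60 of 162 in its 5'UTR in ΔNTR, 14 of 172 in ΔCTR and 49 of 192 in FL, a difference of 28.9 points (20.2 to 37.2). NETO2, a receptor auxiliary subunit gene, had 15 of 32 in ΔNTR, 0 of 31 in ΔCTR and 8 of 11 in FL. TPM4, a tropomyosin gene, had 20 of 87, 0 of 45 and 10 of 73, and the alpha-tubulin gene TUBA1C 15 of 53, 4 of 115 and 6 of 84. SLC39A9, a zinc transporter gene, had 7 of 20 in ΔNTR and 0 of 35 in ΔCTR, and YWHAQ, a 14-3-3 protein gene, 18 of 42 and 3 of 29, but neither had a 5'UTR peak in FL.

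Shifts the other way were fewer. LGALS1, the galectin-1 gene, had 55 of 102 in its 5'UTR in ΔNTR and 68 of 98 in ΔCTR, a difference of -15.5 points (-28.2 to -1.98). HS3ST3A1, a heparan sulfate modifying enzyme gene, had 0 of 26 and 7 of 34, KIAA0586 0 of 23 and 10 of 50, and SLC7A5, an amino acid transporter gene, 0 of 34 and 6 of 39. The intervals of MT2A (-46.0 to 2.61) and CDH13 (-39.9 to 7.57) included 0.

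At the level of sites, the lists shared the smaller part of their peaks by number and the larger part of their score. A ΔCTR peak overlapped 31.8% of ΔNTR peaks (31.1 to 32.5), which held 53.1% of the ΔNTR score. A ΔNTR peak overlapped 34.0% of ΔCTR peaks (33.3 to 34.8), which held 64.0% of the ΔCTR score. Overlap rose with the score: 16.2% of ΔNTR peaks and 16.9% of ΔCTR peaks with a score of 3 overlapped, against 98.0% and 99.1% of those with 30 to 99. No partner was listed for 76.5% of the 5'UTR peaks of ΔNTR (73.3 to 79.4) and 60.9% of those of ΔCTR (56.3 to 65.4), while in 3'UTRs these shares were 64.9% and 63.1%. The 5'UTR peaks with a partner were equally many in both lists. That gap therefore restates the number of 5'UTR peaks, 737 in ΔNTR and 443 in ΔCTR, and is no separate result.

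Where exactly 1 peak of each list overlapped, 4372 sites in all, the summed score was 37089 in ΔNTR and 59086 in ΔCTR. That is 39.9% of the ΔNTR score and 49.8% of the ΔCTR score, and the peaks were of like width, 30.3 and 30.7 nt on average. For single sites, here and below, no input was taken off, so their ratios compare shares alone, unlike those of genes. Among the 304 such sites with a summed score of at least 50, 13 had a share at least 2-fold higher in ΔNTR, 4.28%, and 99 in ΔCTR, 32.6%. Their median log2 ratio was -0.69, with quartiles of -1.20 and -0.13. It was -0.84 at the 172 sites in 3'UTRs, -0.44 at the 85 in CDS and 0.24 at the 11 in 5'UTRs.

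Outside the start of PGK1, the site farthest toward ΔNTR by its interval was the PFN1 site printed above, with 59 in ΔNTR, 11 in ΔCTR and 66 in FL. It was followed by a site at the very start of RMRP, the RNA of the RNase MRP complex, (chr9:35658008-35658029, minus) with 64, 18 and 40. The RMRP site shown above was less far apart, with 114, 53 and 73. PKM, the pyruvate kinase gene, had a 3'UTR site with 59, 30 and 72. At these 4 sites FL had a clear peak, and it was at or above the ΔNTR score at the PFN1 and PKM sites. A 3'UTR site of PGK1 (chrX:78125974-78126028, plus) scored 46 in ΔNTR and 12 in ΔCTR and had no FL peak.

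The sites farthest toward ΔCTR had FL scores between those of the deletions. The site in PAPOLA, the poly(A) polymerase gene, scored 4 in ΔNTR, 69 in ΔCTR and 25 in FL, a log2 ratio of -3.45 (-5.67 to -2.33). SLC20A1, a phosphate transporter gene, had 39, 253 and 113 at its CDS site, a log2 ratio of -2.31 (-2.87 to -1.85). A site in the ACTL6A 3'UTR (chr3:179588243-179588261, plus) had 5, 55 and 25. In CPSF2, which encodes a subunit of the cleavage and polyadenylation factor, a CDS site had 4, 48 and 15, and the CDS site of PCNX4 had 6, 55 and 31.

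Strong peaks, with a raw score of at least 10 that is not scaled to the list totals, numbered 1400 in ΔNTR and 2339 in ΔCTR. Of these, 138 (9.86%) and 389 (16.6%) had no partner. An FL peak overlapped 78 of the 138 (56.5%) and 270 of the 389 (69.4%). The highest in ΔNTR lay in the 3'UTR of ACTG1, the gamma-actin gene, (chr17:81510417-81510461, minus) with a score of 83, and neither ΔCTR nor FL had a peak there. The other leading ΔNTR peaks were the EYA4 intron with 56 and 63 in FL, a PGK1 3'UTR site with 37 and none in FL, and a VIM site over the start of the CDS (chr10:17229397-17229463, plus) with 36 and 56 in FL. In ΔCTR they were a LINC01312 intron with 138 and 80 in FL, the FBXW7 intron with 64 and 54, GEM with 43 and 27, and LNPEP, an aminopeptidase gene, with 36 and 60. The LINC01312 peak shared a run of 13 bases with RN7SL1. Since peaks that touched a parental peak could be removed whole, a missing partner says only that no peak is listed.

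The base composition around peaks differed in G and C. In the 31 nt around peak centres G and C made up 49.0% in ΔNTR (SE 0.108, n = 17180 peaks), 47.2% in ΔCTR (SE 0.109, n = 15869) and 48.7% in FL (SE 0.119, n = 14333). Each SE is taken over the peaks of a pooled list, which are not replicates, and is a minimum error. The gap was mainly in C, at 24.96% in ΔNTR and 23.4% in ΔCTR, with A at 23.2% and 24.2% and T at 27.8% and 28.6%. It had the same sign in every part of the mRNA, with 66.2% against 64.5% in 5'UTRs, 53.0% against 51.1% in CDS and 44.5% against 43.2% in 3'UTRs. Peaks without a partner had 49.5% in ΔNTR and 46.8% in ΔCTR, while peaks with one had 47.9% in both lists, as overlapping windows cover nearly the same bases. C and T together made up 52.8% in ΔNTR and 51.9% in ΔCTR.

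Counted as 5-mers, words of G and C only had a log2 ratio between ΔNTR and ΔCTR of 0.33 (0.29 to 0.37), words of C and T only 0.15 (0.13 to 0.17) and words of A and T only -0.13 (-0.16 to -0.11). Among pyrimidine words the ratio was 0.03 (-0.04 to 0.11) for the word of T alone, -0.03 (-0.09 to 0.02) for words with 1 C and then higher with each further C, up to 0.50 (0.34 to 0.66) for the word of C alone. Neighbouring words overlap, so these intervals are minimum errors.

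Composition moved with the score ratios as well. Genes were divided into 3 classes of 285 by the G and C share of their FL peaks, and the median log2 ratio was -0.30, 0.08 and 0.18 from the lowest to the highest class. Over the 855 genes Spearman's coefficient with this share was 0.29, and over the 304 shared sites the coefficient with the G and C share of the site was 0.31, while with the C and T share it was 0.03. Within the 172 shared 3'UTR sites and the 85 shared CDS sites the coefficient with G and C was 0.25 and 0.23. The coefficient with the input level of the gene was 0.29, and with transcript length -0.11. These are descriptions over genes and sites that share 2 pooled lists, and the part of base composition in the gene and site ratios was not tested.

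Gene lists were then set against all 855 genes, of which 7.72% were higher in ΔNTR and 11.6% in ΔCTR with a median of -0.04. Ribosomal protein genes leaned toward ΔNTR. Of 8 large-subunit genes compared, all were above 0, with a median of 0.40, and RPL8 and RPL23 (33, 22 and 32 in ΔNTR, ΔCTR and FL) were called higher in ΔNTR. The median of 4 small-subunit genes was 0.57. The members named by score were less far apart, with RPL37A at 0.37 (-0.13 to 0.88), RPLP0 at 0.03 (-0.51 to 0.55), RPSA at 0.49 (-0.17 to 1.15), RPS20 at 0.66 (0.32 to 1.02) and RPS19 at -0.32 (-1.02 to 0.33). Summed over all members, the large-subunit genes took 0.711% of the ΔNTR score, 0.527% of the ΔCTR score and 0.6003% of the FL score, and the small-subunit genes 0.509%, 0.347% and 0.337%. Their 5'UTRs held 175, 93 and 156 in the large-subunit genes and 93, 83 and 82 in the small-subunit genes.

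Other mRNAs of the translation machinery were divided. Of 7 initiation factor genes compared, 6 were above 0, with a median of 0.54, and EIF5A (44, 23 and 46) was called higher in ΔNTR, while EIF4G2 stood at 0.46 (0.17 to 0.76) and EIF5 at 0.68 (0.29 to 1.07). Among the other mRNAs with a terminal oligopyrimidine tract none of 4 was called, with EEF2, an elongation factor, at -0.04, RACK1 at -0.07, PABPC1 at -0.33 and TPT1 at 0.41. Of the LARP family only LARP1 was compared, at -0.35 (-0.87 to 0.14).

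RNA-processing genes split within families. Of 7 hnRNP genes, HNRNPA0, HNRNPA2B1 (63, 30 and 23) and HNRNPU (72, 45 and 30) were called higher in ΔNTR, and HNRNPH1 was called higher in ΔCTR, with 248 in ΔNTR, 780 in ΔCTR and 720 in FL. The summed log2 ratio of the family was -0.60 before the input is taken off and 0.42 without HNRNPH1. Of 2 SR protein genes SRSF5 (64, 30 and 56) was called higher in ΔNTR and SRSF11 stood at -0.53 (-1.42 to 0.24).

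The cytoskeleton showed the same division. Of 19 actin cytoskeleton genes 13 were above 0, with a median of 0.33. PFN1 and TPM4 (87, 45 and 73) were called higher in ΔNTR and ACTB was called higher in ΔCTR, while FLNA at 0.54 (0.34 to 0.74), ACTG1 at 0.33 (0.13 to 0.53) and ACTN4 at 0.17 (-0.06 to 0.39) were under 2-fold. The summed log2 ratio of these genes, before the input is taken off, was -0.18 with ACTB and 0.50 without it. Of 5 tubulin genes TUBA1A (20, 45 and 24) was called higher in ΔCTR and the median was -0.61, with TUBB at -0.61 (-1.06 to -0.20), TUBA1C at -0.78 (-1.29 to -0.31) and TUBA1B at 0.46 (0.08 to 0.86).

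Few matrix and adhesion genes were called. The calls were toward ΔCTR, where 11.6% of all 855 genes were called, so no lean of these genes is read from them. None of 6 collagen genes or 5 integrin genes was called, with medians of 0.02 and 0.17. Of 7 matrix glycoprotein genes LAMB1, a laminin chain (32, 105 and 33), was called higher in ΔCTR, and the median was -0.21. Of 8 collagen-processing genes PLOD1, a lysyl hydroxylase (19, 42 and 24), was called higher in ΔCTR, and the median was -0.34. LOX, the collagen crosslinking oxidase gene, stood at -0.72 (-1.16 to -0.29), with scores of 80, 106 and 54 and an input of 537 and 338 CPM in the ΔNTR and ΔCTR lines. Of 3 catenin and cadherin genes CTNNA1 was called, while CTNNB1, the beta-catenin gene, stood at 0.31 (-0.08 to 0.69).

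In metabolism and protein folding, the 3 iron-handling genes were all above 0. FTL, the ferritin light chain gene (69, 40 and 38), was called higher in ΔNTR, FTH1 stood at 0.79 (0.54 to 1.04), with scores of 319, 231 and 313, and TFRC at 0.17 (-0.20 to 0.53). Of 7 glycolysis genes HK2 (36, 17 and 10) was called higher in ΔNTR and the median was 0.03, with PKM at 0.31 (0.14 to 0.48), LDHA at 0.33 (0.04 to 0.61) and ENO1 at -0.23 (-0.47 to 0.01). PGK1 entered this median as a whole gene, with the peaks around its start. None of 7 endoplasmic reticulum chaperone genes, 4 cytosolic chaperone genes, 2 respiratory chain genes and 11 mitochondrial transcripts was called, with medians of 0.36, 0.33, -0.01 and 0.18.

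The 23 genes under the input minimum were mostly lncRNAs and small RNAs, with summed scores of 50 to 267, and no input could be taken off. LINC01312 scored 0 in ΔNTR and 138 in ΔCTR, at 0 CPM in both lines. The vault RNA gene VTRNA1-3 scored 58, 152 and 94 in ΔNTR, ΔCTR and FL, a log2 ratio of shares of -1.02 (-1.50 to -0.59). FA2H, a fatty acid hydroxylase gene, scored 75, 46 and 109, a log2 ratio of 1.05 (0.51 to 1.62). The input of FA2H was 0.040 and 0 CPM, so almost no message of this gene was counted in the input.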

How the data were processed

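Per the labels and the methods of the study, the authors trimmed reads with Trim Galore and aligned them with STAR to GRCh38.p13, with version 2.7.10b stated for the input RNA. The iCLIP reads that mapped to rRNA or tRNA were discarded beforehand with Bowtie 2, and iCLIP duplicates were removed with UMI-tools. The replicates, 3 per variant, had their peaks called apart and then combined with summed scores, and parental peaks were subtracted with bedtools 2.30.0. This sum is the deposited score, a whole number of at least 3 that the authors did not scale to depth, and the iCLIP depth is unknown here. The deposited input counts per gene come from STAR, and the reverse-strand column of the PE150 libraries was used (25027075 counts in the ΔNTR line and 26936180 in the ΔCTR line).

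Peaks were assigned by centre on their strand first to CDS of any annotated transcript, then to UTRs, ncRNA and introns, and otherwise to intergenic sequence. The GENCODE annotation was of a later release than the authors' on the same build. Of 62750 gene identifiers 62625 matched. Ratios were computed as described with the results (Python 3.11.15, scipy 1.17.1, pysam 0.24.0), and the script was tested on simulated scores. TMM factors came from edgeR 4.0.16. With 1 list per variant no test was possible.

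Genes named were the 12 per direction whose interval lay farthest from 0, the 6 with the highest summed score, the extremes in 5'UTR share, up to 4 members of each list by score, the known targets, and the extreme sites. Called members of the lists, the genes at the 2-fold limit, the genes with the largest differences in concentration and the genes named under the input minimum were added after their values were seen. Some genes and sites that the rule picks are not reported here. The members and gene lists were chosen with earlier results of these data known. Alternatives covered the input (among them the small-RNA libraries of the same lines), scaling, score limits, overlap and region order.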

Additional observations from a re-analysis of the deposited data

How the results depend on the processing

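No paired analysis was possible because the processed peaks of the replicates of each variant are merged into 1 list, which also prevented leaving out any of them, and the reads were not used here. The main setting called 66 genes higher in ΔNTR and 99 higher in ΔCTR of the 855 compared. A summed score minimum of 20 gave 248 and 285 of 1850 genes (13.4% and 15.4%). A minimum of 100 gave 18 and 38 of 429 (4.20% and 8.86%). The counts that follow are again out of 855. Single-end 50 nt libraries, which the labels call small-RNA libraries and which are no equal measure of mRNA, gave as the input 137 and 111, of which 58 and 63 were among the genes called above. Other alternatives were chosen after seeing the data. Without ACTB in the list totals the counts were 63 and 106, and with ratios centred within 3 classes of the G and C share of the FL peaks they were 65 and 88, of which 52 and 74 were called above.

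By number of peaks in place of score, the differences between ΔNTR and ΔCTR were 1.498 percentage points in 5'UTRs, -1.05 in 3'UTRs, -0.0773 in CDS and -0.179 in introns, so the CDS and intron differences changed sign. Peaks above a score of 3 gave 2.44 points in 5'UTRs and 0.49 in introns. Without ACTB the CDS difference was 1.22 and the 3'UTR difference -3.50, and without PGK1, an alternative added later, the intron difference was 0.47. Overlap of at least 50% of both peaks left 38.2% of the ΔNTR score and 48.8% of the ΔCTR score in shared sites, and peaks above 3 gave 62.5% and 69.2%. The share of the highest peak in place of the Simpson index gave a median difference of -0.0839. None of the 24 genes named for their ratio changed direction under the alternatives in which they were still compared. They were chosen for a wide gap in the same scores, so nothing is read from this. With this small-RNA input ADAM12 stood at -0.73 and CTNNA1 at -0.70, under the 2-fold limit, and COL1A2 at -1.02, past it.

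The lists hold no depth and no replicate spread, so variation between cultures cannot be told apart from the effect of the deletion. The score limit sets how many genes are called.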
